A study of Homo sapiens with 6 samples.

Results

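Bone morphogenetic protein (BMP) signalling was described in 4 cell lines of atypical teratoid/rhabdoid tumor (AT/RT), a malignant brain tumor of young children, through 10 genes: the ligands BMP2, BMP4, BMP5 and BMP7, the type I receptors BMPR1A and BMPR1B, and the inhibitor of DNA binding genes ID1, ID2, ID3 and ID4. They were picked by symbol from the 36532 gene identifiers in the transcript files, where each of the 10 symbols matched 1 identifier. RNA was sequenced once from CHLA 02 and once from CHLA 05, and in 2 technical replicates from CHLA 04 and from CHLA 06. All 4 lines are patient-derived, carry the label AT/RT, received no treatment and were kept in DMEM:F12 medium supplemented with epidermal growth factor and basic fibroblast growth factor at 20 ng/mL each and B-27 at 2%. The study describes CHLA 02, CHLA 04 and CHLA 05 as assigned by earlier work to a neurogenic first group and CHLA 06 to the second. Each line stands for 1 tumor and 1 biological sample, so no test between cell lines was possible. The replicates are labelled technical, and the step at which they were split is not given in the sources used here. Their spread is therefore not taken as a measure of the spread between cultures.

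BMP ligands are secreted dimers that bring together type I and type II receptor kinases at the cell surface. The type I receptor then phosphorylates SMAD1, SMAD5 and SMAD9, which enter the nucleus with SMAD4. The ID genes are classic immediate targets of this pathway. Their proteins pair with basic helix-loop-helix (bHLH) factors and keep them from binding DNA, and in the developing brain they hold back neuronal differentiation. BMP signals also pattern the dorsal neural tube and favour astrocytes over neurons.

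Levels are in TPM, read counts corrected for transcript length and library depth, summed over the transcripts of a gene. The libraries held 10265899 to 20520229 reads on transcripts as recovered from the TPM values. Intervals in brackets are exact 95% Poisson intervals of those reads and cover counting error only. A gene was called higher or lower in a cell line where every library of that line lay 2-fold or more beyond every library of the other lines in TPM + 1. It was called as spanning where the highest and the lowest line means of TPM + 1 differed by 4-fold or more. These are calls by size, not tests. They were made on the 16343 genes with 1 TPM or more in a library, among them 9 of the 10 members; BMP5 stayed below that level.

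The tumor label was checked on SMARCB1, the gene whose loss defines most AT/RT, which was read at 13.5 to 26.2 TPM. The study describes all 4 lines as lacking SMARCB1 expression, which this RNA does not show. Its level cannot tell whether an intact protein was made. Vimentin (VIM), an intermediate filament of rhabdoid cells, was read at 4629 to 19464 TPM. Neural markers did not move as one. SOX1, PAX6, GFAP and AQP4 were each under 1 TPM in both CHLA 06 libraries and above 15 TPM in every other library. NES was at 5.21 to 27.6 TPM in all 6. The neuron markers were mixed. TUBB3 (ENSG00000258947) was at 205 to 455 TPM, highest in the second CHLA 06 library. A second TUBB3 identifier (ENSG00000198211) was at 30.4 TPM in CHLA 02 and at most 10.5 TPM elsewhere. SNAP25 was called lower in CHLA 06, with no reads there and at most 3.35 TPM elsewhere. STMN2 was under 1 TPM in all but the first CHLA 04 library, at 1.21 TPM. Epithelial and mesenchymal markers were mixed as well. KRT8, KRT18 and COL1A1 were high in CHLA 06 and CHLA 02 and at most 11.5 TPM elsewhere. CDH1 and COL1A2 were highest in CHLA 05, at 12.4 and 7.12 TPM, and PDGFRB was lowest in CHLA 06, at 4.45 and 3.85 TPM. MYC, listed as a marker of the AT/RT-MYC subgroup, was at 72.1 to 94.1 TPM in CHLA 06 and CHLA 02 and at most 1.44 TPM elsewhere. Of the other markers of that list, HOXC9 and HOXC10 were at most 3.30 TPM in any library and HOTAIR had no reads. The melanosome genes TYR and MLANA were at 0 reads in all 6 libraries. Of the genes listed with them, MITF was at 0.874 to 6.13 TPM, while OTX2 and DCT were under 1 TPM in every library. In bulk RNA, fewer cells of a type and less RNA per cell cannot be told apart.

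The library labelled CHLA 02 stood apart in one respect that touches most results below. It lay beyond every library of the other lines at only 0.122% of genes upward and 0.0122% downward, 20 and 2 genes of 16343. For comparison, CHLA 05 lay above all others at 852 genes. Among the 1197 genes whose means differed by 8-fold or more between CHLA 04 and CHLA 06, CHLA 02 fell between the lines at 1126 (94.1%), while CHLA 05 did so at 870 (72.7%). On a scale from 0 at the CHLA 04 mean to 1 at the CHLA 06 mean, the median position of CHLA 02 was 0.616, with quartiles of 0.461 and 0.756. BMP4 sat at 0.669 and BMP7 at 0.676, the only members that differ by 8-fold or more between those lines. On the same scale BMPR1A was at 0.650, ID3 at 0.671, ID4 at 0.784, ID2 at 0.785 and BMP2 at 0.801. Outside the range were ID1 at 1.34, BMPR1B at -0.172 and BMP5 at -1.35, with few reads of BMPR1B and BMP5 in these lines. A sum of 0.299 times CHLA 04, 0.00541 times CHLA 05 and 0.626 times CHLA 06 was fitted over 16334 tested genes that are no members. It came within 2-fold of CHLA 02 at 97.7% of the 10379 genes with 10 TPM or more there. The weights were fitted to these same genes and no such sum was made for another line, so this share has no baseline. For BMP4 that sum gave 206 TPM against 220 TPM measured, and for BMP7 84.2 TPM against 90.9 TPM. ID1 was the member above 10 TPM with the largest gap, at 190 TPM from the sum against 319 TPM measured. Whether the library holds RNA of more than one cell line was not tested. Each call of a member is therefore given with and without CHLA 02, an alternative chosen after seeing the data.

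**Figure D1:**
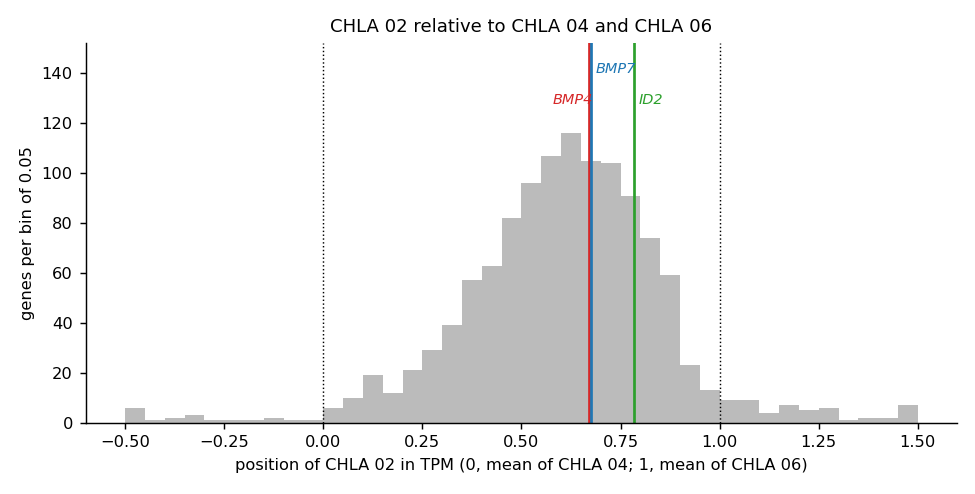
Position of the CHLA 02 library between CHLA 04 (0) and CHLA 06 (1) in TPM, as a histogram of the 1197 genes that differ by 8-fold or more between those lines; values beyond the axis ends are in the end bins and dotted lines mark 0 and 1. Most genes lie between the dotted lines. Colored lines mark BMP4 at 0.669, BMP7 at 0.676 and ID2 at 0.785, of which ID2 differs by less than 8-fold and is not in the histogram.

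Upstream sequence is shown for BMPR1B, whose level set CHLA 05 apart, and for ID1 and ID4, the ID genes with the largest difference between technical replicates and with the highest level. The sequences are RefSeq promoters (GRCh38.p14) from base -250 to base -11 before the start, a stretch outside the annotated exons of each of these genes. RefSeq promoters were found for 8 of the 10 members, with BMP2 and BMP7 not analysed here. Capitals mark GTCT or its reverse complement AGAC, the core letters bound by SMAD proteins, and would also mark GGCGCC, a GC-rich SMAD1 and SMAD5 element. These motifs share no letters where they were found.

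BMPR1B, chr4:94757705-94757944, plus strand: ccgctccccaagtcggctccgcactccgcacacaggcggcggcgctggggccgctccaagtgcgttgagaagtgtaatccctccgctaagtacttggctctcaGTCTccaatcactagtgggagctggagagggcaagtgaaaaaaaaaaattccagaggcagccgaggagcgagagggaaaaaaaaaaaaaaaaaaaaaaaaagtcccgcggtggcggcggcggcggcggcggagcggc
ID1, chr20:31605039-31605278, plus strand: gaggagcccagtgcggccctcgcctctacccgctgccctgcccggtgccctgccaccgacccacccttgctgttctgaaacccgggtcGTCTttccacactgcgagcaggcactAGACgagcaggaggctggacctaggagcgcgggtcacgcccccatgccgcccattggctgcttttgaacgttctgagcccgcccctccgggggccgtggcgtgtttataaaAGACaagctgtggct
ID4, chr6:19837120-19837359, plus strand: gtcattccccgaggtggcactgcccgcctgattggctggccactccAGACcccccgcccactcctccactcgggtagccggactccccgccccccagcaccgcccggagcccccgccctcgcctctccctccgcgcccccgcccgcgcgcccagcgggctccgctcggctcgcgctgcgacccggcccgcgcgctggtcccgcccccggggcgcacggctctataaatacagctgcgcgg

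In this window GTCT or AGAC occurred 3 times at ID1, at -162, -136 and -25, and 1 time each at BMPR1B (-147) and ID4 (-204). Over all 35116 promoters, 76.2% held at least 1 copy and the median was 1. GGCGCC was in none of the 3 stretches and in 15.5% of all promoters. Among the promoters of members that are not shown, 1 of BMP4 held GGCGCC (-232), and the other two of BMPR1B held GTCT or AGAC 3 and 5 times. A match describes letters and does not show binding, and elements outside the window were not searched.

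The ligands split the cell lines. CHLA 04 and CHLA 05 carried BMP7, CHLA 06 carried BMP4, and CHLA 02 carried both. BMP7 (chr20:57168748-57266629, minus strand, GRCh38) is known for roles in kidney, eye and brain development. It was read at 337 and 223 TPM in the 2 replicates of CHLA 04, 90.9 TPM in CHLA 02, 40.7 TPM in CHLA 05, and 0.210 and 0.0630 TPM in CHLA 06. The CHLA 06 values rest on 3 and 1 reads, against 5222 and 5622 reads in CHLA 04. No libraries of different lines overlapped, and the order from CHLA 04 through CHLA 02 and CHLA 05 to CHLA 06 held in every replicate. As a share of all transcript reads, pooled over replicates, BMP7 was 3855-fold higher in CHLA 04 than in CHLA 06. The exact 95% binomial interval of this ratio, 1505 to 14151, is wide because the lower side holds 4 reads. BMP7 was called higher in CHLA 04, by at least 2.44-fold over CHLA 02 and 5.38-fold without CHLA 02. It was also called lower in CHLA 06, by at least 34.5-fold, a value that the added 1 TPM holds down. It was the only member of 9 called higher in CHLA 04, where 1.71% of all genes were (4.05% without CHLA 02), and the only one called lower in CHLA 06, where 5.32% were (8.69% without CHLA 02).

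BMP4 (chr14:53949736-53958761, minus strand), the ligand that dorsalizes neural tissue and favours surface ectoderm, ran close to the reverse. CHLA 06 had 379 and 277 TPM, from 4732 and 3957 reads, and CHLA 02 had 220 TPM [211 to 229]. CHLA 04 had 0.410 and 1.61 TPM, from 3 and 11 reads, and CHLA 05 had 0.0800 TPM from 1 read. CHLA 04 and CHLA 05 could not be ordered, since their intervals overlap. As a share of all transcript reads, pooled over replicates, BMP4 was 436-fold higher in CHLA 06 than in CHLA 04. The exact 95% binomial interval of this ratio was 260 to 799. With CHLA 02 included BMP4 met no 2-fold call, because CHLA 06 exceeded CHLA 02 by only 1.26-fold at the nearest libraries, and no member was called higher in CHLA 06, where 1.32% of all genes were. Without CHLA 02, BMP4 was called higher in CHLA 06 by at least 106-fold, as 1 of 2 members at a background of 7.24%.

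BMP2, a close relative of BMP4, and BMP5 were scarce in every library. BMP2 was highest in CHLA 05, at 1.53 TPM [1.07 to 2.12], followed by 1.12 and 0.845 TPM in CHLA 04, 0.291 TPM in CHLA 02, and 0.108 and 0.130 TPM in CHLA 06. Neighbours in this order overlapped in their intervals, although the ends of the order did not. BMP5 had 3 reads in CHLA 02, 1 in each CHLA 04 library, 2 in CHLA 05 and none in CHLA 06, where 0 reads, taken to allow up to 3 reads, allow up to 0.0981 and 0.0889 TPM. Differences in BMP5 were not detectable at this depth. Summed over the 4 ligands, CHLA 05 had the least, 42.4 TPM, against 226 to 379 TPM in the other 5 libraries. BMP7 made up 98.9% or more of that sum in CHLA 04 and 96.0% in CHLA 05, BMP4 made up 99.9% in both CHLA 06 libraries, and CHLA 02 held 70.7% BMP4 and 29.2% BMP7.

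**Figure D2:**
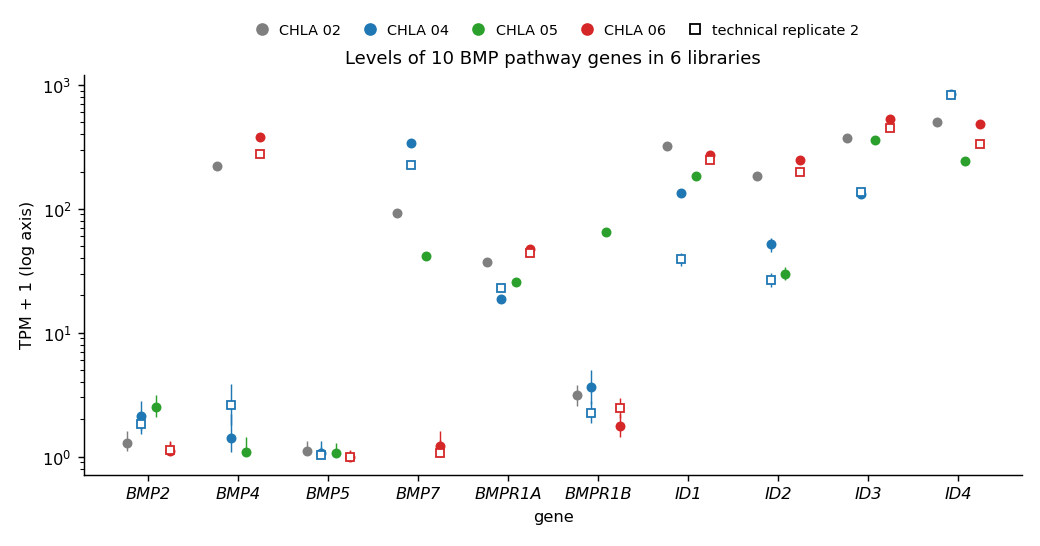
Level of each member in TPM + 1 (log axis) by library; colors are cell lines, filled circles are first or single libraries, open squares are second technical replicates, and bars are exact 95% Poisson intervals. BMP4 and BMP7 change places between CHLA 06 and CHLA 04, BMPR1B is high in CHLA 05 alone at 64.1 TPM, and the ID genes stay above 25 TPM throughout.

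The 2 type I receptors behaved differently from each other. BMPR1A (chr10:86756650-86932838, plus strand), which is broadly expressed in embryonic and adult tissue, was read in every library, at 46.1 and 43.3 TPM in CHLA 06, 36.0 TPM in CHLA 02, 24.7 TPM in CHLA 05, and 17.6 and 21.9 TPM in CHLA 04. The libraries of different lines did not overlap, but the line means spanned only 2.20-fold and no call was met. BMPR1B (chr4:94757968-95158448, plus strand), the receptor of more restricted expression in neural tissue and cartilage, was at 64.1 TPM in CHLA 05 [61.2 to 67.0], from 1842 reads. In the other libraries it was at 2.12 TPM (CHLA 02), 2.67 and 1.27 TPM (CHLA 04), and 0.758 and 1.46 TPM (CHLA 06). CHLA 05 was thus set apart, while the remaining 3 lines overlapped with their neighbours in order. BMPR1B was called higher in CHLA 05 by at least 17.7-fold with or without CHLA 02, as the only member so called where 5.21% of all genes were (5.46% without CHLA 02). It made up 72.2% of the summed type I receptor TPM in CHLA 05 and 1.62% to 13.2% elsewhere. No member was called lower in CHLA 05, where 1.13% of genes were (1.20% without CHLA 02).

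Among transcripts, the full-length BMPR1B form of 5567 bp took 71.8% of the gene in CHLA 05 and 4.77% to 31.7% where the gene had 18 to 47 reads, too few to compare isoforms. BMP7 came from its transcript of 4013 bp to 85.3% or more in CHLA 02, CHLA 04 and CHLA 05. In BMP4, the transcript of 1917 bp led with 64.5% in CHLA 02 and 54.9% and 60.8% in CHLA 06. The leading transcript of each ligand was thus the same in every line with many reads of it, so it does not tell these lines apart. The second BMP7 transcript, of 1746 bp, took 1.32% in CHLA 02 (14 reads) and 1.29% in CHLA 05 (6 reads). In the CHLA 04 replicates it took 6.54% and 10.6%, from 163 and 286 reads.

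All 4 ID genes were abundant in all lines, at 25.5 TPM or more in every library. ID4 (chr6:19837386-19840684, plus strand), expressed in neural progenitors and astrocytes, was highest in CHLA 04, at 846 and 834 TPM, above 503 TPM in CHLA 02, 485 and 333 TPM in CHLA 06 and 242 TPM in CHLA 05. The CHLA 04 replicates differed by 1.01-fold and stood clear of all other libraries, but by 1.66-fold at the nearest, short of the 2-fold call. CHLA 02 and CHLA 06 overlapped. ID4 alone gave 72.9% and 80.7% of the summed ID TPM in CHLA 04, against 27.1% to 36.4% in the other lines.

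ID3 (chr1:23557918-23559794, minus strand) showed the opposite place for CHLA 04. It was read at 531 and 451 TPM in CHLA 06, 374 TPM in CHLA 02, 355 TPM in CHLA 05, and 131 and 136 TPM in CHLA 04. CHLA 04 was below every other library by at least 2.60-fold, with or without CHLA 02, and ID3 was the only member called lower in this line, where 2.62% of all genes were (3.23% without CHLA 02). CHLA 02 and CHLA 05 could not be separated, as their intervals overlap.

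ID2 (chr2:8678845-8684453, plus strand), a target of BMP and MYC signals, split the lines in pairs. CHLA 06 had 248 and 198 TPM and CHLA 02 had 183 TPM, whereas CHLA 04 had 50.6 and 25.5 TPM and CHLA 05 had 29.0 TPM. Within each pair the lines overlapped. ID2 met the 4-fold span, at 7.46-fold, but was called higher in CHLA 06 only without CHLA 02, by at least 3.86-fold. ID1 (chr20:31605283-31606515, plus strand), a commonly used readout of BMP receptor activity, was highest in CHLA 02 at 319 TPM, then 272 and 249 TPM in CHLA 06, 181 TPM in CHLA 05, and 133 and 38.1 TPM in CHLA 04. Libraries of different lines did not overlap, but the CHLA 04 replicates differed from each other by 3.50-fold. Only 19 of the 9975 genes with 100 reads or more in both CHLA 04 libraries (0.190%), ID1 included, differed by as much, so the size of any ID1 difference that involves CHLA 04 is uncertain by that factor. ID2 differed between the same replicates by 1.98-fold, as did 5.24% of genes, while ID3 and ID4 differed by 1.04-fold and 1.01-fold. In CHLA 06 the largest replicate difference of an ID gene was 1.46-fold, for ID4.

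The summed ID level moved less than its parts, from 808 TPM in CHLA 05 to 1537 TPM in the first CHLA 06 library. The libraries with BMP4 as the main ligand drew it from ID3, ID4, ID1 and ID2 in more even shares, with ID2 at 13.3% to 16.1%, compared with 2.47% to 4.36% in CHLA 04 and CHLA 05.

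**Figure D3:**
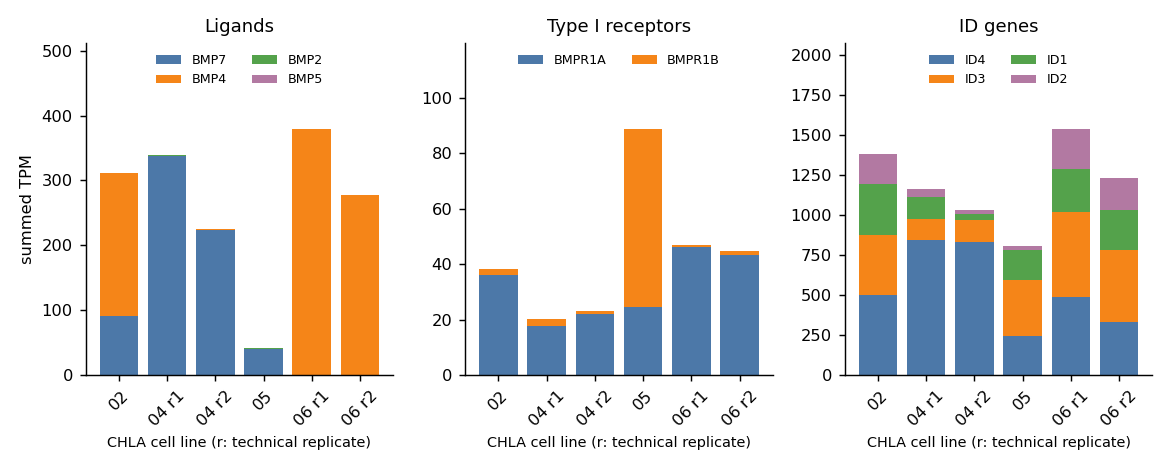
Summed TPM of the ligands, the type I receptors and the ID genes in each library, as stacked bars from 0 with 1 color per gene. The ligand bar is BMP7 in CHLA 04 and CHLA 05, BMP4 in CHLA 06 and both in CHLA 02; the receptor bar of CHLA 05 is mostly BMPR1B, and the ID bar of CHLA 04 is mostly ID4.

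Over all 9 members tested, BMP4 (305-fold), BMP7 (248-fold), BMPR1B (30.8-fold) and ID2 (7.46-fold) met the 4-fold span between line means of TPM + 1. These are 4 of 9, beside 20.5% of all genes, and the 4 were the same without CHLA 02, beside 19.8%. None of the 9 was called higher or lower in CHLA 02. The log2 difference between CHLA 06 and the mean of the other lines was 5.39 for BMP4 and -6.50 for BMP7, and it became 7.80 for BMP4 without CHLA 02. For the ID genes it was 1.90 for ID2, 0.91 for ID3, 0.61 for ID1 and -0.19 for ID4, of which those of ID1 and ID4 were smaller than the technical SD, 0.89 and 0.27. The median log2 difference of all tested genes between CHLA 06 and CHLA 04 was -0.22 in TPM + 1.

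A second readout came from the mapping of the same libraries to long terminal repeat (LTR) elements, remnants of retroviruses. Reads in such elements inside introns come from unspliced RNA or from the elements themselves. The introns of BMP7 hold 7 LTR elements on its strand, and these had 417 and 432 reads in the CHLA 04 replicates, 140 in CHLA 02 and 51 in CHLA 05, while both CHLA 06 libraries had 0. The 23 elements in introns of BMPR1B on its strand had 370 reads in CHLA 05 and 0 to 15 reads in each other library. The 11 elements of BMPR1A had 92 to 296 reads in every library. Thus the order of the lines in BMP7 and the place of CHLA 05 in BMPR1B were seen in intronic reads as well. On the opposite strand, 13 elements in BMP7, 32 in BMPR1B and 23 in BMPR1A had at most 2 reads in any library, so these reads followed the strand of the gene. The elements with the most reads were the internal part of a THE1A element in BMP7 (chr20:57238998-57240576), with 243 and 245 reads in CHLA 04, and that of an MSTA element in BMPR1B (chr4:94916177-94917801), with 72 reads in CHLA 05. Reads that fit several copies of an element can be placed at any of them, which was not tested. BMP4 had 1 element with reads within 10 kb, an MLT1D at chr14:53967577-53968026, with 15 and 11 reads in CHLA 06, 4 in CHLA 02 and 0 elsewhere. No annotated LTR element lay within 10 kb of ID1, ID3 or ID4.

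**Figure D4:**
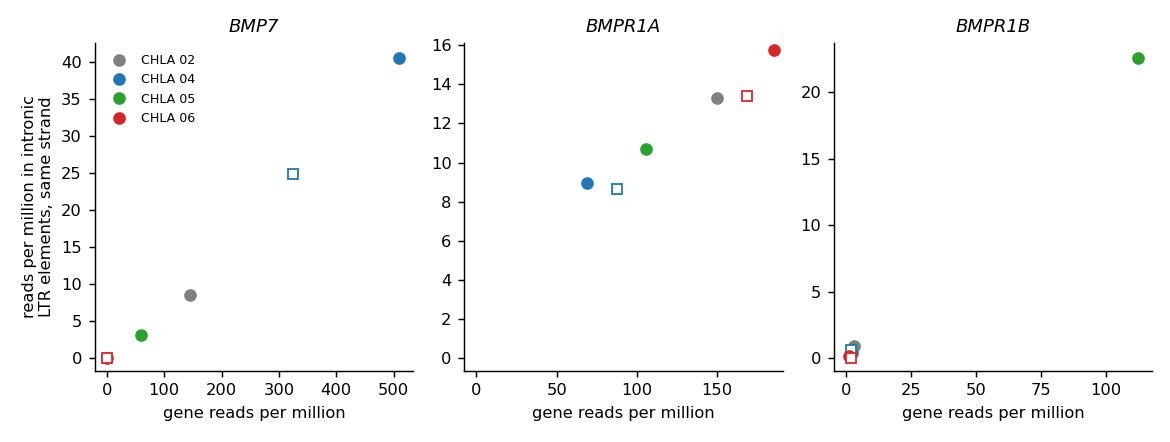
Reads in intronic LTR elements on the strand of the gene against reads of the gene, both in reads per 1e+06 transcript reads, for BMP7, BMPR1A and BMPR1B; colors are cell lines and open squares are second technical replicates. BMP7 elements are at 0 in CHLA 06 and highest in CHLA 04, and BMPR1B elements stand out in CHLA 05 alone at 22.6.

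Other genes of the pathway were taken from 6 lists of 88 genes. Their counts are over genes with 1 TPM or more in a library, a limit that some genes passed only in the line where they were high. The shares of all genes to set beside them are 1.32% higher and 5.32% lower in CHLA 06, 7.24% and 8.69% without CHLA 02, and 5.21% higher in CHLA 05. Calls of the genes named below were the same with and without CHLA 02 unless stated. Of 11 other receptors and co-receptors tested, 1 was called higher and 2 lower in CHLA 06, and 4 higher and 3 lower without CHLA 02. ACVR1, another type I receptor for BMPs, was called higher in CHLA 06, at 113 and 112 TPM against 17.8 to 39.7 TPM elsewhere. BMPR2, the type II receptor, was at 201 and 150 TPM in CHLA 06, 89.0 TPM in CHLA 02 and 32.3 to 54.8 TPM in CHLA 04 and CHLA 05, and was called only without CHLA 02. ACVR2B, a type II activin receptor, and RGMA, a BMP co-receptor and axon guidance molecule, were called lower in CHLA 06. TGFBR2, the TGF-beta type II receptor, was chosen after its values were seen: it was at 298 and 260 TPM in CHLA 06 and 213 TPM in CHLA 02, and at most 12.3 TPM in CHLA 04 and CHLA 05.

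Of 6 other ligands tested, 1 was called higher and 1 lower in CHLA 06. The latter was AMH, anti-Mullerian hormone, which was also 1 of 2 ligands called higher in CHLA 04, at 99.7 and 69.0 TPM. BMP8B was called higher in CHLA 05, at 14.0 TPM against 1.26 to 3.49 TPM. BMP6, chosen after its values were seen, was the ligand called higher in CHLA 06, at 8.27 and 11.5 TPM against 0.0851 to 0.753 TPM.

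Of 14 secreted antagonists and modulators tested, 7 were called higher in CHLA 05, beside 5.21% of all genes. Of these, 3 had 10 TPM or more there. They were FST, follistatin, at 31.2 TPM against 0.857 to 10.6 TPM, CHRDL1, a chordin-like BMP antagonist, at 11.1 TPM against at most 1.51 TPM, and NBL1, a BMP antagonist of the DAN family, at 10.7 TPM against at most 3.92 TPM. The calls of SOST, SOSTDC1, VWC2 and TLL1 there, named after their values were seen, rest on 1.69 to 2.67 TPM, with each gene under 1 TPM in every other library. NOG, noggin, was called higher in CHLA 06, at only 4.92 and 4.39 TPM. CHRD, chordin, had its highest values in CHLA 04, at 25.7 and 11.4 TPM, and was called lower in CHLA 06 together with FSTL1. Without CHLA 02, NBL1 and CRIM1 were called lower in CHLA 06 as well.

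Among 17 intracellular genes, 2 were called higher and none lower in CHLA 06, and 6 and none without CHLA 02. The signal carriers SMAD1, SMAD5 and SMAD4 met no call: SMAD1 was at 24.8 to 53.4 TPM, SMAD5 at 83.3 to 233 TPM and SMAD4 at 76.3 to 103 TPM. SMAD9, another BMP-regulated SMAD, was at 42.8 and 40.5 TPM in CHLA 06 and 21.9 TPM in CHLA 02, and at 0.977 to 1.63 TPM in CHLA 04 and CHLA 05, and was called higher in CHLA 06 only without CHLA 02. SMAD6, an inhibitory SMAD that BMP signals induce, was called higher in CHLA 06, at 41.2 and 31.8 TPM against 1.48 to 11.2 TPM, with the SMAD inhibitor SKIL the other. SMAD7, the second inhibitory SMAD, was at 20.7 and 16.4 TPM in CHLA 06 against 2.69 to 8.17 TPM and met no call. BAMBI, a pseudoreceptor, was called higher in CHLA 04, at 24.9 and 25.6 TPM, and ZEB2, a SMAD-binding repressor, was called lower there, at 1.47 and 0.640 TPM against 18.0 to 96.1 TPM, and also higher in CHLA 06 without CHLA 02.

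Of 12 other target genes tested, 2 were called higher and 2 lower in CHLA 06, and 6 higher and 2 lower without CHLA 02. GATA2 and DLX2, transcription factors of ventral mesoderm and forebrain, were the former 2, with GATA2 at 51.5 and 53.2 TPM in CHLA 06, 21.1 TPM in CHLA 02 and at most 0.431 TPM elsewhere. HEY1 and ATOH8, both bHLH factors, were the latter, with ATOH8 at 0.631 and 0.628 TPM in CHLA 06 against 19.0 to 68.0 TPM. DLX5 was called higher in CHLA 05, by at least 14.0-fold over levels of 1.26 to 6.21 TPM.

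Among the bHLH factors listed as partners of the ID proteins, 3 of 7 tested were called lower in CHLA 06. Without CHLA 02 this rose to 5 of 7, and none was called higher with or without it. Besides TCF12, the 3 were NEUROG2 and TWIST1, both at low levels and named after their values were seen. NEUROG2 had no reads in CHLA 06 and at most 3.62 TPM elsewhere. TWIST1 was at 0.310 and 0.141 TPM in CHLA 06 and at least 2.20 TPM elsewhere. TCF12 was the only 1 of the 3 E proteins called with CHLA 02 included. TCF12, an E protein, was called lower in CHLA 06 at 106 TPM in both libraries against 220 to 436 TPM, and TCF4 was called lower there only without CHLA 02, at 5.13 and 3.25 TPM against 67.4 to 75.5 TPM in CHLA 04 and CHLA 05. TCF3, the E protein that ID proteins bind in many tissues, was at 154 to 357 TPM and met no call. OLIG1 and OLIG2, oligodendrocyte lineage factors, were called higher in CHLA 05, at 31.9 and 14.2 TPM, and had no reads in CHLA 06, where OLIG2 was also called lower without CHLA 02. ID2, ID3 and ID1 were at their highest in CHLA 06 or CHLA 02, where TCF12 and TCF4 had their lowest values. ID4 went the other way: it was highest in CHLA 04, where the line means of TCF12 and TCF3 were highest too.

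**Figure D5:**
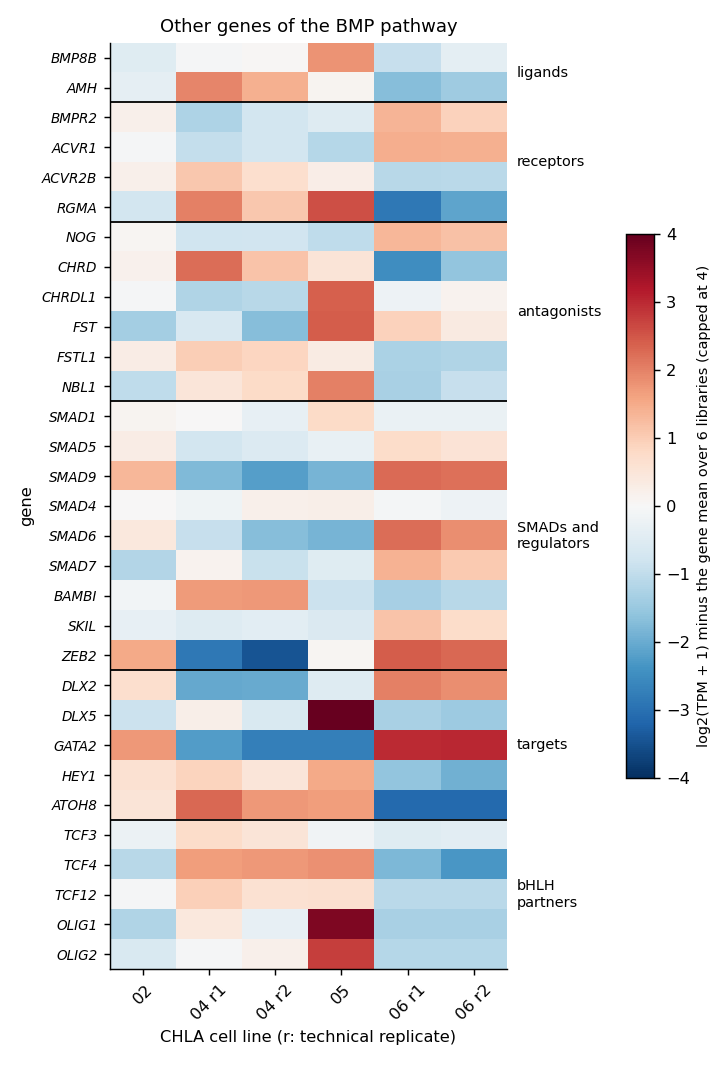
Level of 31 other pathway genes in each library as log2(TPM + 1) minus the mean of the gene over the 6 libraries, from blue (lower) to red (higher), capped at 4 in either direction. BMPR2, ACVR1, SMAD9, SMAD6 and GATA2 are red in CHLA 06 and TCF4 and ATOH8 blue, while DLX5, FST, OLIG1 and OLIG2 are red in CHLA 05.

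For the 4 members that met the span, the genes with the most alike pattern were found by the distance between centred log2(TPM + 1) values over the 4 line means, among 11859 genes with 10 TPM or more in a line. Nearest to BMP7 were SEMA5B (distance 0.17), NRG1 (0.28) and NTN1 (0.38), which encode a semaphorin, neuregulin and netrin. Nearest to BMP4 were VEPH1 (0.25), SCN9A (0.35), a sodium channel, and ELMOD1 (0.47). NETO1 (0.23), LSAMP (0.27) and the transcription factor KLF4 (0.30) were nearest to BMPR1B, and B4GALT6 (0.11), PDCD6IPP2 (0.16) and ERAP2 (0.19) to ID2. With 4 cell lines many genes share a pattern, so the distances only describe likeness.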

How the data were processed

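RNA was extracted from 4 AT/RT cell lines and sequenced from TruSeq Stranded Total RNA libraries as paired reads of 125 bp. Per the study's methods and the labels, the authors processed base calls with CASAVA 1.8.2, trimmed reads with Trimmomatic, mapped them with the CLCbio RNA-Seq tool to GRCh38 with Ensembl release 82, and deposited TPM per transcript and, from a separate mapping, TPM per LTR element, without log transformation or pooling. Program versions other than that of CASAVA are not given in the sources used here. All 12 deposited files, which hold 173113 transcripts and 720177 LTR elements per library, were used.

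Gene TPM was summed over transcripts (pandas 2.3.3). Reads were recovered as whole multiples of TPM times length, and at least 99.6% of values were whole within 0.05 reads. The recovery and the calls were checked on simulated data. Calls used TPM + 1, fold limits of 2 and 4, and genes with 1 TPM or more in a library. Groups followed the labels, with the mean of technical replicates. The genes named outside the 10 members were those called in a line with a mean of 10 TPM or more, plus BMPR2, ACVR1, 6 SMADs, NOG and 3 E proteins. The members and lists were chosen with earlier results of these data known. A gene of the lists is not reported here and was left out of their counts. In total 15 alternatives were planned and 1 was added. Exons for the LTR elements and promoters came from GENCODE release 44 (GRCh38).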

Additional observations from a re-analysis of the deposited data

How the results depend on the processing

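No paired analysis was possible because no test was made between cell lines and the 2 replicates of a line are technical. Of 142 counts of members under the alternatives, 132 stayed within 1.5 times the reported count. The 4 members that met the span became 6 under quantile normalization and under median-of-ratios scaling, with ID1 and ID3 added, which lies at that limit. They became 5 with a pseudocount of 0.1 TPM (BMP2 added) and without the first CHLA 04 replicate (ID1 added). Members called lower in CHLA 05, none as reported, became 1 (BMP4, from 1 read) with a pseudocount of 0.1 TPM and 2 (BMP4 and ID4) with the higher technical replicate, and ranged from 0 to 1 when single replicates were left out. Members called lower in CHLA 04 ranged from 1 to 2 when single replicates were left out, with ID1 added to ID3 without the first CHLA 04 replicate. With limits of 1.5-fold and 3-fold, 7 members met the span and 2 were called higher in CHLA 04 (BMP7 and ID4). With limits of 3-fold and 6-fold, 0 were called higher and 0 lower in CHLA 04. Without the CHLA 02 library, 2 members were called higher in CHLA 06, beside 7.24% of all genes. The shares of all genes under the other alternatives are not given here, so the counts under them describe the members alone. The limits and the number of libraries set these counts by construction; the cause of the other changes was not tested. Of 120 values of single members, 96 moved by less than the technical SD. The log2 difference of ID4 between CHLA 06 and the other lines, -0.19, changed sign to 0.05 with the higher technical replicate and without CHLA 06 replicate 2, within its technical SD of 0.27. No other value changed sign. Median-of-ratios scaling shifted libraries by -0.13 to 0.09 (log2). The spread between cultures was not measured, and BMP2 and BMP5 lie at the limit of this depth.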

Other observations

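The technical replicates of CHLA 04 differed in other genes that respond quickly to stimuli, all chosen after their values were seen. FOS was at 128 and 5.46 TPM in the first and second replicate, FOSB at 56.5 and 3.92 TPM, EGR1 at 61.3 and 11.2 TPM, and JUNB, one of the listed BMP targets, at 24.6 and 7.24 TPM. ID1 moved the same way, at 133 and 38.1 TPM. CTGF moved the opposite way, at 30.2 and 149 TPM. In CHLA 06 FOS was at 63.8 and 65.3 TPM, EGR1 at 58.7 and 54.6 TPM, FOSB at 18.3 and 28.6 TPM, JUNB at 251 and 154 TPM and CTGF at 18.7 and 9.76 TPM. ID3 and ID4 did not share this pattern, with ratios between the CHLA 04 replicates of 1.04 and 1.01. What these genes share with ID1 across the replicates was not tested.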
